A study of Rattus norvegicus and Mus musculus with 22 samples.

Results

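The genes of the major histocompatibility complex (MHC) and of peptide loading were followed through all 4 count tables of the series. The members are every rat symbol that starts with RT1-, every mouse symbol that starts with H2-, and B2m, Tap1, Tap2, Tapbp, Cd74 and Ciita in both species. They come to 81 of the 33364 distinct symbols in the tables. The day 7 lung and lung CD4 tables each hold 37 members, the day 56 lung table holds 42 and 44 stand in the mouse spleen table. Members are described where a group mean reached 0.5 CPM, the count of a gene over the TMM-scaled total count of its library times 1e6, which left 33, 33, 39 and 32. Of these, class I heavy chains numbered 17 in day 7 lung, 17 in lung CD4 cells, 22 in day 56 lung and 16 in spleen, and class II chains numbered 10, 10, 11 and 9.

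MHC class I molecules pair a heavy chain with B2m, the invariant light chain, and show peptides from inside the cell to CD8 T cells. The transporter made of Tap1 and Tap2 carries those peptides into the endoplasmic reticulum, where tapasin (Tapbp) helps to load them. MHC class II molecules are pairs of an alpha and a beta chain that show peptides from endosomes to CD4 T cells, mainly on B cells, dendritic cells and macrophages. Cd74, the invariant chain, guards the class II groove, the DM pair exchanges its content for peptide, the DO pair restrains DM, and Ciita switches the class II genes on. In rats RT1-A holds the classical class I genes, RT1-B and RT1-D are the class II pairs that match mouse H2-A and H2-E, and the RT1-CE, RT1-N, RT1-M, RT1-S and RT1-T24 genes are mostly nonclassical class I genes. MHC genes are among the most variable between individuals and strains, and many class I genes are close copies of one another.

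The 16 rat libraries came from animals given Sugen and hypoxia, a model of pulmonary hypertension, and compare wild-type (WT) rats with rats lacking Il6 (IL6KO). Whole lung was taken on day 7 and on day 56, with 3 libraries per genotype and day, and CD4-positive cells were isolated from lung on day 7, with 2 libraries per genotype. The 6 mouse libraries are splenic CD4-positive cells of 3 Ai14; SM22alpha-Cre mice, each sorted by tdTomato into positive and negative fractions. All rats had Sugen and hypoxia, so no untreated level is known, and the rat strain and the age and treatment of the mice are not given in the labels. The Ai14 reporter marks cells in which the SM22alpha-driven Cre has been active at any time, and does not report current activity of that promoter. The labels do not say that rat libraries of a group came from separate animals, so p-values measure the spread between these libraries, which may be technical.

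Library totals lay between 15011692 and 23590070 counts for day 7 lung and between 14415060 and 22961232 for day 56 lung. The CD4 isolates had 11477533 to 12930732 counts, and the splenic fractions 8737138 to 12560401. Il6 counts were 5, 11 and 6 in WT and 8, 5 and 2 in IL6KO day 7 lung, 6, 6 and 5 against 0, 2 and 3 in day 56 lung, and 48 and 20 against 8 and 17 in the CD4 isolates. The groups overlapped in day 7 lung and lay only a few counts apart in day 56 lung and in the CD4 isolates. These low counts are therefore no firm check of any rat label, and genotypes are used as labelled. Cd3e, a chain of the T cell receptor complex, ran from 449 to 621 CPM in the CD4 isolates and from 337 to 495 CPM in the splenic fractions, against 4.32 to 12.4 CPM in whole lung. WT library 3 of day 56 stood apart from the other WT libraries of that day in several members, and values without it are given beside the day 56 results that it moved most. The labels do not give the RT1 haplotype of any rat, so in every RT1 fold below the genotype and a difference in RT1 alleles between the animals cannot be told apart. In these bulk samples fewer cells of a type and less RNA per cell cannot be told apart.

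How reads that fit several copies were counted is not given in the sources used here, so the value of a single RT1 or H2 class I gene is uncertain. A sum over the class depends less on how such reads were shared among the copies. It still depends on whether they were dropped or counted more than once. In the RefSeq gene table of the rat assembly GRCr8, 39 of the 43 rat members were found by symbol. The models of RT1-CE5 overlapped those of RT1-CE4, RT1-CE6 and RT1-CE7, those of RT1-CE4 overlapped RT1-CE6 and RT1-CE7, and RT1-T24-2, RT1-T24-3 and RT1-T24-4 overlapped one another. The counts of overlapping genes may include shared reads.

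A RefSeq promoter window of 300 bases, from 250 bases before to 50 after the start, was held for 34 rat members. The windows of 3 gene pairs are shown because their partners took different values in the CD4 isolates described further on: the alpha and beta chain genes of both class II pairs, and the classical class I genes RT1-A1 and RT1-A2. The capitals mark CTGATTGG, the form of the Y box found in class II promoters (CCAATCAG on the other strand), and in the class I windows also GGGATTCCC, a form of enhancer A (GGGAATCCC on the other strand), and TTTCACTTC (GAAGTGAAA on the other strand), a form of the interferon-stimulated element. All windows are from chromosome 20 of GRCr8 and are written 5′ to 3′ along the gene.
RT1-Ba (chr20:4576807-4577106, plus strand): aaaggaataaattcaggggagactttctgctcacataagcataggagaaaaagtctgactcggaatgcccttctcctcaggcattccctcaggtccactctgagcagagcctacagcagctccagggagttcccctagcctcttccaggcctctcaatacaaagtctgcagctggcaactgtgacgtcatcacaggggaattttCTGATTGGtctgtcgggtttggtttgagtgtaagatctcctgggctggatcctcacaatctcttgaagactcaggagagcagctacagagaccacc
RT1-Bb (chr20:4604069-4604368, minus strand): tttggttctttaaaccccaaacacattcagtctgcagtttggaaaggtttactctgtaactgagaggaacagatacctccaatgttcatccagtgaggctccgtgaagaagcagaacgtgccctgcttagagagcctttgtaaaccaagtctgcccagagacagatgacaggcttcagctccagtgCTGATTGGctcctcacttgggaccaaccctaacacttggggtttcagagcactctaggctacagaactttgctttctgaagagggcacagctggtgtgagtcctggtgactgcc
RT1-Da (chr20:4515165-4515464, plus strand): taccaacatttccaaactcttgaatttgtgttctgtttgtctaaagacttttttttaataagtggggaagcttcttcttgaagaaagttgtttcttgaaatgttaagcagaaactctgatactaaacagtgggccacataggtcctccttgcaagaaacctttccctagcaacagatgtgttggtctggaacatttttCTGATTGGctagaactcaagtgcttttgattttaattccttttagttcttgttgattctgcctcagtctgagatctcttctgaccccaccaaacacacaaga
RT1-Db1 (chr20:4560113-4560412, minus strand): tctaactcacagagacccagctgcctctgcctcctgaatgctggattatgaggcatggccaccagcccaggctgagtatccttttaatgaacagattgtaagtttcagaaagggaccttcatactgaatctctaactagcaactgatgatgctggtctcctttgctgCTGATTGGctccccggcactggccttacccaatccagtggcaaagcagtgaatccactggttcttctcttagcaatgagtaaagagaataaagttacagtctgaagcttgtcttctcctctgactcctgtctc
RT1-A1 (chr20:4906959-4907258, plus strand): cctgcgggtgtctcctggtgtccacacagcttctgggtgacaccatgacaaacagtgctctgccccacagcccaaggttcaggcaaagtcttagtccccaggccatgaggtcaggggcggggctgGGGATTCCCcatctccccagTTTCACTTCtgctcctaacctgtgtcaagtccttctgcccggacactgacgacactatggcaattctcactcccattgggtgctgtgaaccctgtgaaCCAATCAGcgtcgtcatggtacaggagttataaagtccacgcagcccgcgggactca
RT1-A2 (chr20:4872621-4872920, plus strand): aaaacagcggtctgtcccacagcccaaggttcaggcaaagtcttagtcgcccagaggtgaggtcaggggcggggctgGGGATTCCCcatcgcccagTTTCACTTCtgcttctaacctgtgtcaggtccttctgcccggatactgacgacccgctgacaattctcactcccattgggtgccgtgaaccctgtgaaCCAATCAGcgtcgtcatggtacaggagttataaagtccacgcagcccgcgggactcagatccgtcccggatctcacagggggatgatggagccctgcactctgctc

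The Y box form, searched on both strands, was in 7 of the 9 class II windows and 6 of the 20 class I windows, against 3.5% of all 33469 promoter windows in the table. The enhancer A form was in 4 of the 20 class I windows and the interferon-stimulated form in 5, against 0.365% and 0.469% of all windows, and neither was in a class II window. Both partners of each class II pair carried the Y box form. RT1-A1 and RT1-A2 carried all 3 motifs. The enhancer A form began at base 126 of the RT1-A1 window and 78 of the RT1-A2 window. The interferon-stimulated form began at 146 and 97, and the Y box form at 244 and 195. At the best ungapped alignment of these windows 182 of 251 bases were identical (72.5%). The spacing of the motifs differed and no gap was allowed, so this value may understate how alike the windows are. A match describes these letters only and does not show that a factor bound there.

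Summed over the class I heavy chains, the level in the CD4 isolates was 2913 and 2616 CPM in WT and 3888 and 3757 CPM in IL6KO. Both IL6KO isolates lay above both WT isolates, and the ratio of the group means was 1.38. In day 7 lung the class I sum was 1521 ± 91.7 CPM (SD, n = 3) in WT and 1567 ± 149 CPM in IL6KO, and in day 56 lung it was 2027 ± 239 and 2055 ± 102 CPM. These lung differences were smaller than the spread between libraries. Class II sums also overlapped in day 7 lung, at 1420 ± 263 CPM in WT and 1440 ± 30.1 CPM in IL6KO, and in the CD4 isolates, at 4127 and 5315 CPM against 4032 and 6043 CPM. In day 56 lung the class II sum was 1792 ± 194 CPM in WT and 1392 ± 188 CPM in IL6KO, a ratio of 0.777 (0.828 without WT library 3), and every WT library lay above every IL6KO library.

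**Figure D1:**
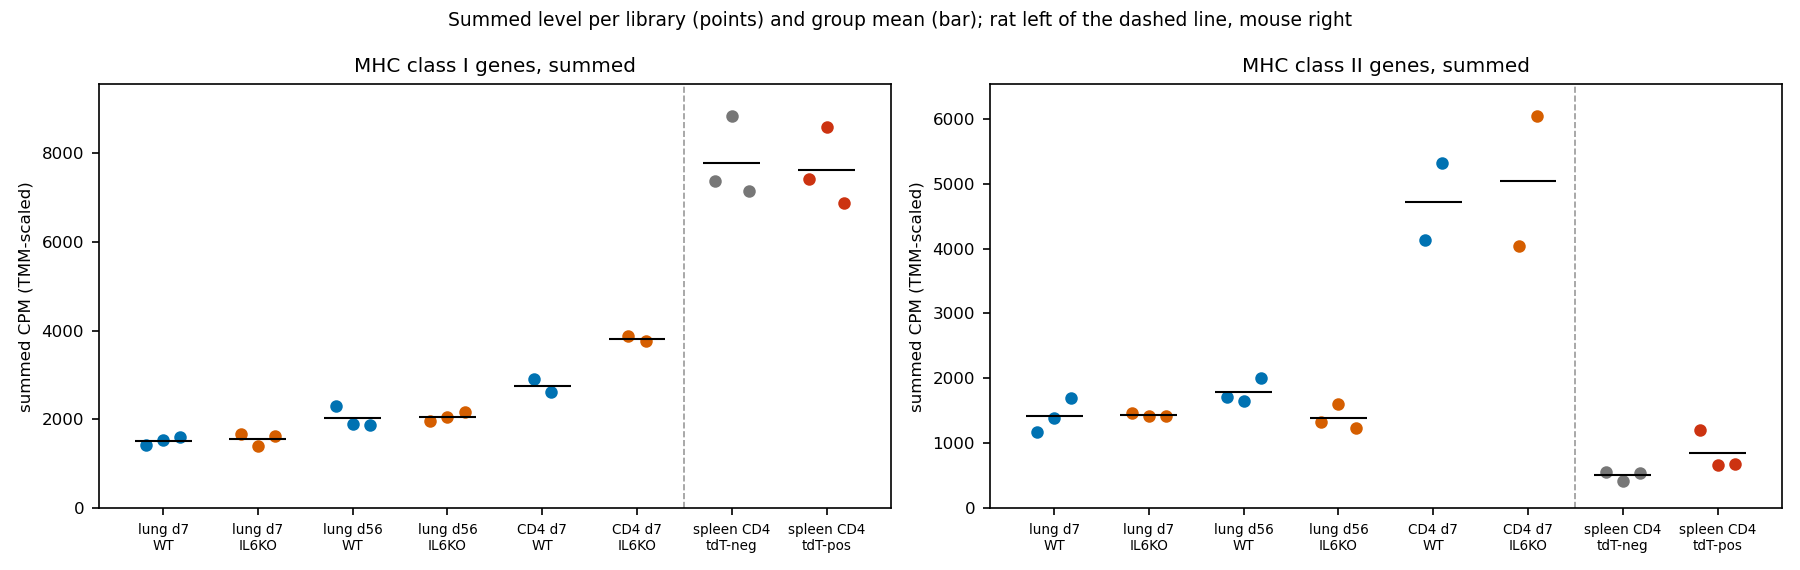
Summed CPM of the described class I genes (left) and class II genes (right) in each library, with WT in blue, IL6KO in orange, tdTomato-negative fractions in grey and tdTomato-positive fractions in red; points are libraries and bars are group means. Class I sums of the IL6KO CD4 isolates (3888 and 3757 CPM) lie above those of WT (2913 and 2616 CPM), and class II sums of tdTomato-positive splenic fractions lie above those of the negative fractions.

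Of the comparisons of IL6KO with WT, that in day 7 lung CD4 isolates gave the most members past the test. RT1-CE1, RT1-CE10, RT1-CE7, RT1-CE5 and RT1-A2 rose while RT1-A1 fell, and among class II genes RT1-DMa, RT1-DMb and RT1-Db2 rose. In all, edgeR's quasi-likelihood test called 9 of the 32 members tested at an adjusted p under 0.05, 8 higher and 1 lower, against 6.4% of all genes tested (3.5% higher and 2.91% lower). The median log2 fold change was 0.50 over the members and -0.00 over all genes. Libraries of the groups did not overlap for 24 members that were higher in IL6KO and 2 that were lower, against 55.5% of all genes in either direction.

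RT1-CE1, one of the nonclassical class I genes, was at 13.3 and 11.7 CPM in WT isolates and at 79.6 and 81.8 CPM in IL6KO isolates. Its log2 fold change was 2.66 (SE 0.11, adjusted p = 0.000124 by edgeR). RT1-CE10 was at 62.1 and 58.9 CPM in WT and at 247 and 247 CPM in IL6KO, a change of 2.01 (SE 0.09, adjusted p = 0.000124). For both genes the distance between genotypes was many times the distance between libraries of a genotype. RT1-CE7 was at 298 and 273 CPM against 570 and 561 CPM (0.96 on the log2 scale, adjusted p = 0.0027), and RT1-CE5 at 386 and 344 CPM against 591 and 586 CPM (0.66, adjusted p = 0.00961). RT1-CE4, whose gene model overlaps both, was not called, at 448 and 396 CPM against 520 and 526 CPM (0.28, adjusted p = 0.113). RT1-S3, another abundant class I gene, was at 358 and 285 CPM against 378 and 344 CPM, and its genotypes overlapped.

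The classical class I genes moved in opposite directions in these isolates. RT1-A1 was at 561 and 526 CPM in WT and at 277 and 278 CPM in IL6KO, and fell by 1.00 (SE 0.08, adjusted p = 0.00192 by edgeR). RT1-A2 was at 416 and 383 CPM in WT and at 709 and 689 CPM in IL6KO, and rose by 0.78 (SE 0.08, adjusted p = 0.00516). The WT isolates were thus high in RT1-A1 and low in RT1-A2, with no overlap in either gene. B2m, the light chain that every class I molecule needs, was at 4186 and 4032 CPM in WT and at 4405 and 4339 CPM in IL6KO and was not called (0.06, adjusted p = 0.63). Tap1, Tap2 and Tapbp were not called either, and their WT and IL6KO libraries lay between 181 and 240 CPM, between 185 and 214 CPM and between 108 and 123 CPM.

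**Figure D2:**
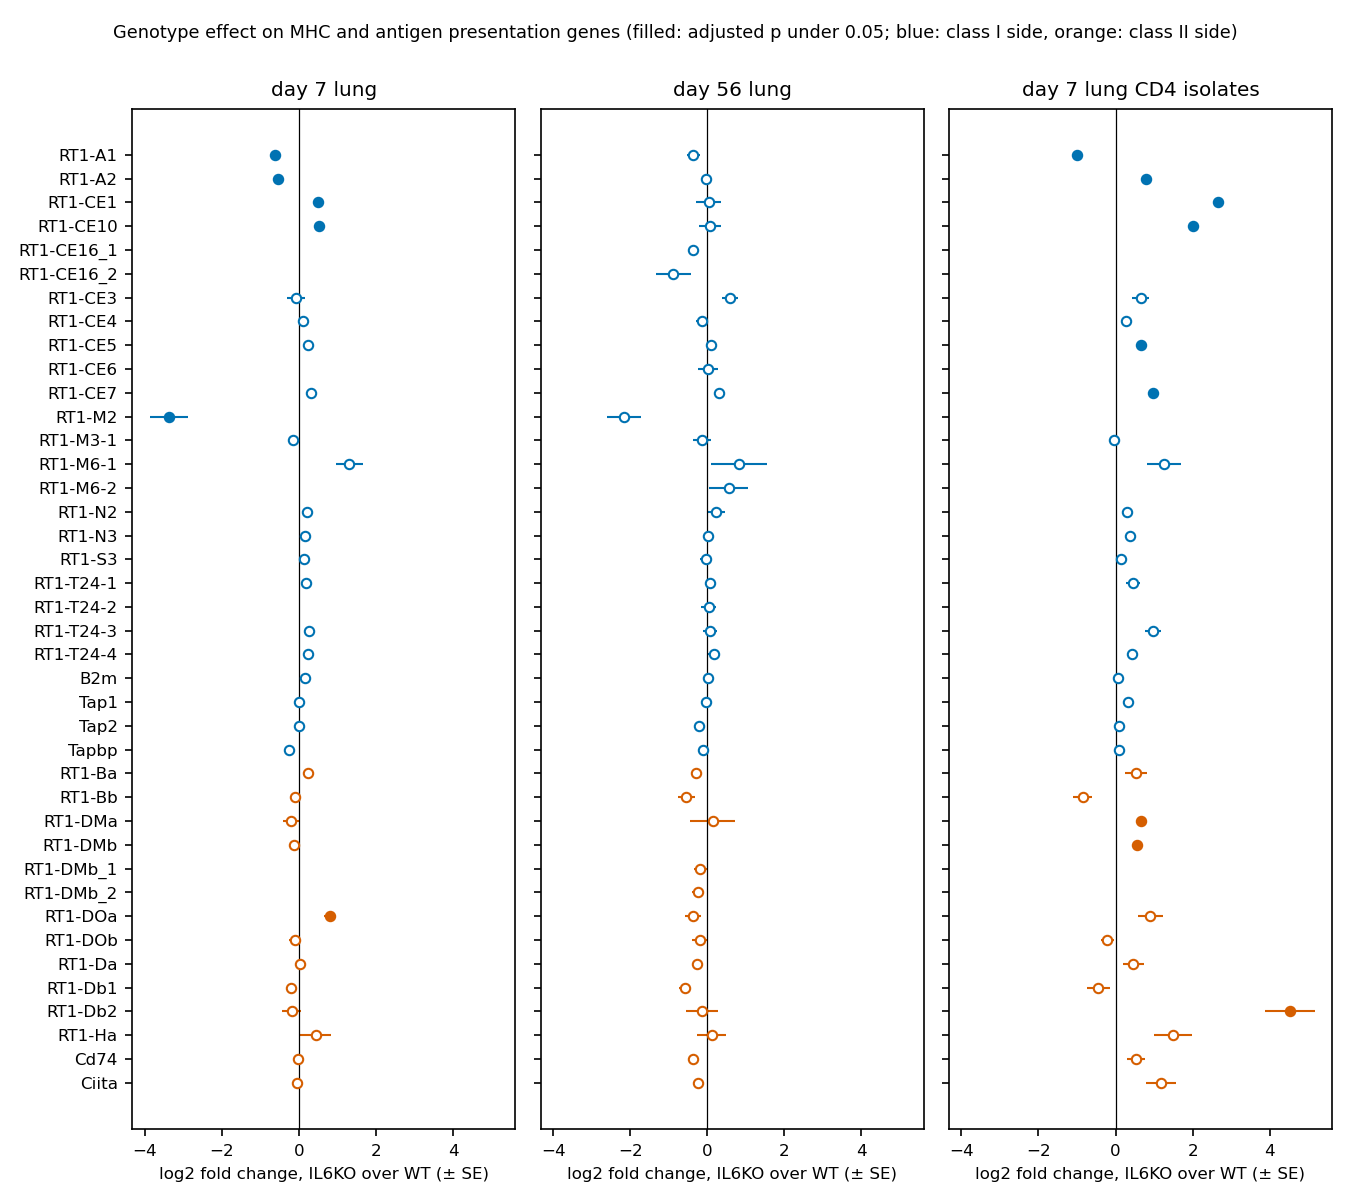
Log2 fold change of IL6KO over WT with its standard error for every member tested, in day 7 lung (left), day 56 lung (middle) and day 7 lung CD4 isolates (right); filled points passed an adjusted p under 0.05, blue marks class I, B2m, Tap1, Tap2 and Tapbp, and orange marks class II, Cd74 and Ciita. RT1-A1 lies below 0 and RT1-A2 above 0 in the CD4 isolates (RT1-A2 at 0.78), while both lie below 0 in day 7 lung (-0.63 and -0.55).

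Ratios of the counts of a pair of genes within a library do not depend on library size. They were chosen after the members' values were seen and are described without a test, and since they are not per length they are read only between libraries. RT1-A1 over RT1-A2 was 1.35 and 1.37 in the WT isolates and 0.390 and 0.403 in the IL6KO isolates. In the 6 day 7 lung libraries the same ratio lay between 0.373 and 0.429, and the genotypes overlapped. RT1-CE1 over RT1-CE4 was 0.0298 and 0.0297 in WT isolates and 0.153 and 0.156 in IL6KO isolates, and RT1-CE10 over RT1-CE5 was 0.161 and 0.171 against 0.419 and 0.422. In day 7 lung both of these ratios were higher in IL6KO with no overlap. RT1-CE1 over RT1-CE4 was 0.516, 0.542 and 0.523 in WT lung and 0.615, 0.640 and 0.813 in IL6KO lung, above all 4 isolates. RT1-CE10 over RT1-CE5 was 0.262, 0.253 and 0.276 against 0.326, 0.334 and 0.314, between the WT and the IL6KO isolates.

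The beta chain genes of the class II pairs showed the same kind of split against their alpha chain genes. RT1-Bb over RT1-Ba was 1.25 and 1.20 in WT isolates and 0.475 and 0.458 in IL6KO isolates. RT1-Db1 over RT1-Da was 0.866 and 0.881 against 0.459 and 0.472. Day 7 lung had the same direction without overlap, RT1-Bb over RT1-Ba at 0.559, 0.593 and 0.656 in WT and at 0.453, 0.474 and 0.512 in IL6KO. For RT1-Db1 over RT1-Da the lung values were 0.532, 0.532 and 0.551 against 0.451, 0.433 and 0.499. In day 56 lung, WT library 3 had RT1-A1 over RT1-A2 at 0.669, against 0.430 and 0.408 in the other WT libraries and 0.376 to 0.410 in IL6KO. The same library had RT1-Bb over RT1-Ba at 0.848, RT1-Db1 over RT1-Da at 0.714, RT1-CE1 over RT1-CE4 at 0.371 and RT1-CE10 over RT1-CE5 at 0.206. For all 5 ratios it lay outside the range of the other 5 libraries of day 56, on the side of the WT isolates. Whether these libraries carry other RT1 alleles than the rest was not tested.

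**Figure D3:**
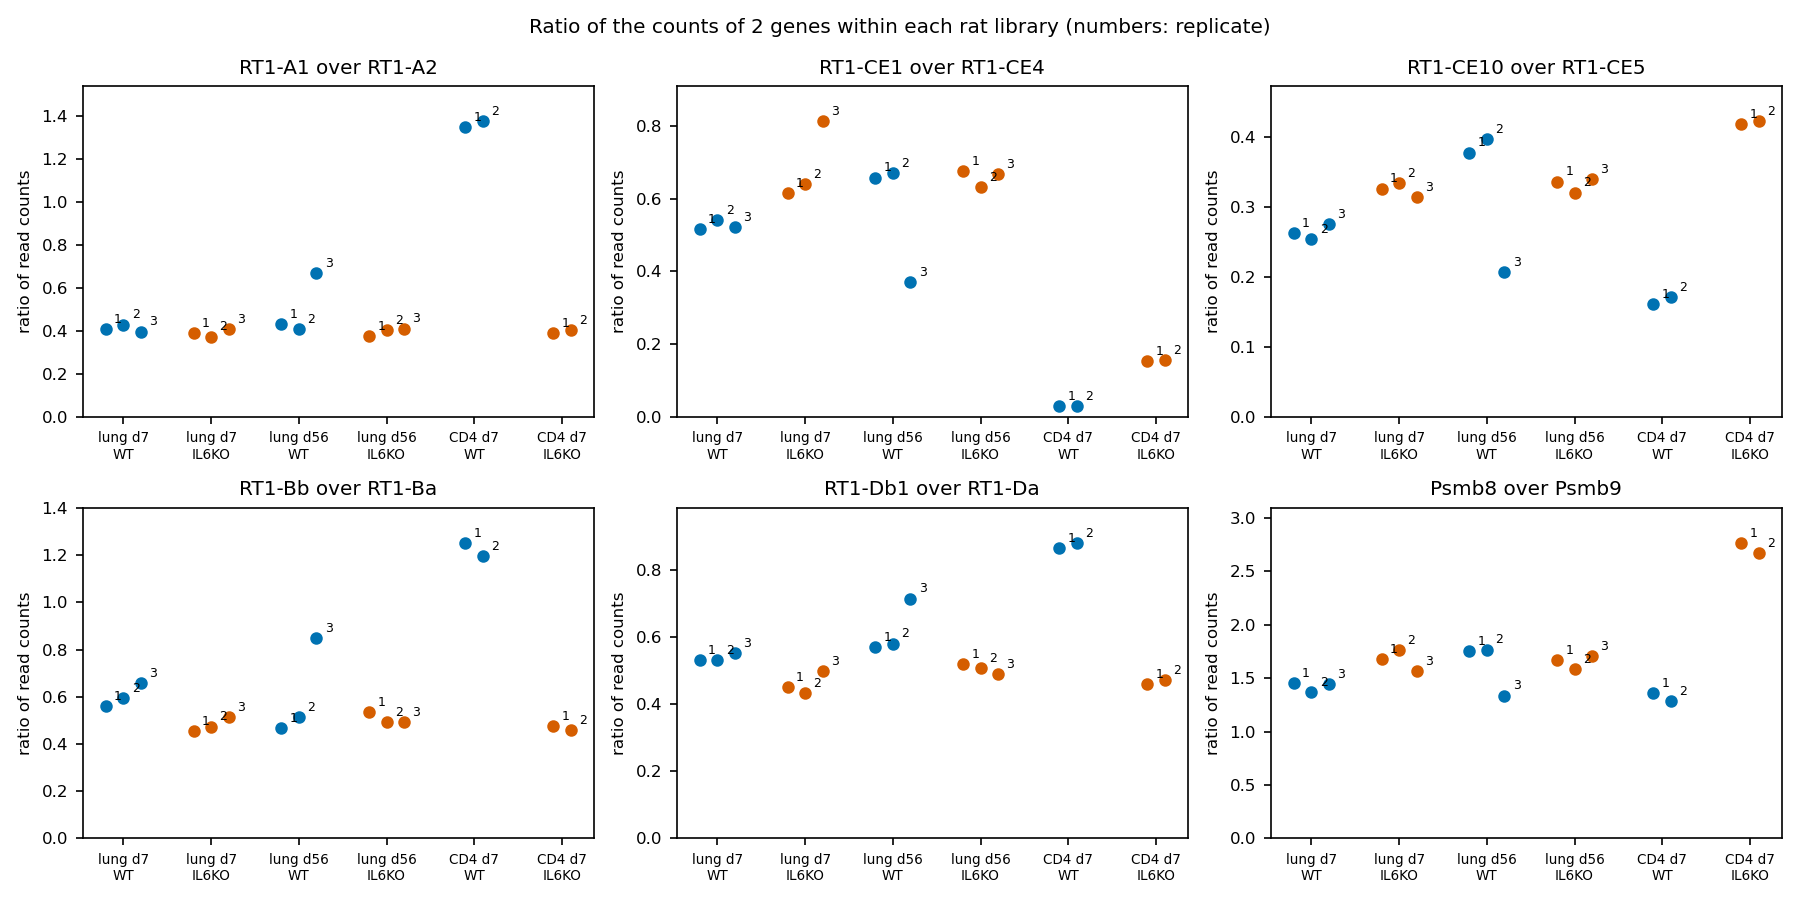
Ratio of the read counts of a pair of genes within each of the 16 rat libraries, by tissue, day and genotype (WT in blue, IL6KO in orange), with the replicate number beside each point. The WT CD4 isolates and WT library 3 of day 56 lung stand away from the other libraries of their tissue, for example at 1.35, 1.37 and 0.669 for RT1-A1 over RT1-A2.

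Among the class II genes of the CD4 isolates, the peptide exchange pair rose. RT1-DMa was at 152 and 170 CPM in WT and at 236 and 286 CPM in IL6KO (0.67, SE 0.11, adjusted p = 0.0193 by edgeR). RT1-DMb was at 88.3 and 105 CPM against 138 and 151 CPM (0.56, SE 0.11, adjusted p = 0.0263). RT1-Db2, a further beta chain gene of the D region, had 11 and 2 counts in the WT isolates and 111 and 185 in the IL6KO isolates, a change of 4.52 (SE 0.64, adjusted p = 0.0262). Its WT level rests on few counts, and the fold is therefore imprecise. Of the DO pair, RT1-DOa was at 10.5 and 14.4 CPM against 17.4 and 30.2 CPM and RT1-DOb at 25.2 and 32.3 CPM against 21.7 and 28.9 CPM, and neither was called.

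The main antigen-presenting pairs did not pass the test in these isolates, and their alpha and beta chain genes differed in sign. RT1-Ba was at 846 and 1108 CPM in WT and at 1129 and 1753 CPM in IL6KO (0.54, adjusted p = 0.383), and RT1-Bb at 1059 and 1327 CPM against 536 and 803 CPM (-0.86, adjusted p = 0.167). RT1-Bb was called without IL6KO library 2 (-1.18, adjusted p = 0.00501 by edgeR). RT1-Da was at 1042 and 1360 CPM against 1332 and 2020 CPM (0.46, adjusted p = 0.426), and RT1-Db1 at 902 and 1198 CPM against 612 and 953 CPM (-0.45, adjusted p = 0.463). Libraries of the genotypes did not overlap for RT1-Ba and RT1-Bb and overlapped for RT1-Da and RT1-Db1. Cd74 was at 2904 and 3823 CPM against 4094 and 5799 CPM (0.53, adjusted p = 0.305). Ciita was at 15.7 and 29.0 CPM against 42.7 and 60.4 CPM (1.18, adjusted p = 0.202 by edgeR and 0.00226 by DESeq2).

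Of 28 other antigen processing genes tested, 2 rose in the IL6KO CD4 isolates and none fell, a share near the 6.4% of all genes called in either direction. Psmb8, a subunit of the immunoproteasome, was at 114 and 117 CPM in WT and at 333 and 291 CPM in IL6KO (1.41, adjusted p = 0.00059). Wdfy4, which dendritic cells need for cross-presentation, was at 66.6 and 65.1 CPM against 104 and 116 CPM (0.72, adjusted p = 0.00891). The median over the list was 0.17, against -0.00 over all genes. Psmb9, the partner subunit, was not called, and Psmb8 over Psmb9 was 1.36 and 1.29 in WT isolates and 2.77 and 2.67 in IL6KO isolates. In day 7 lung every IL6KO library was above every WT library in Psmb8, without a call (0.22, adjusted p = 0.352 by edgeR). The margin was small, with 81.44 CPM in IL6KO library 2 and 81.34 CPM in WT library 3. Of all genes tested there, 18.8% did not overlap between the genotypes. In day 56 lung its lowest level was in WT library 3, at 89.2 CPM, against 100 to 125 CPM in the other libraries. An effect of genotype on Psmb8 and a difference in alleles between the animals cannot be told apart.

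Markers of other cell types differed between the same isolates. The summed level of 10 macrophage markers was 2207 and 2579 CPM in WT and 3433 and 4264 CPM in IL6KO, with 3 of 9 tested markers called higher. The 10 B cell markers summed to 105 and 99.6 CPM against 154 and 132 CPM, with 2 of 9 called higher. Of 7 dendritic cell markers tested, 1 was called lower and 0 higher (median 0.41). Of 10 natural killer cell markers, 1 was called lower and 0 higher (median -0.25). Cd8a and Cd8b together were at 139 and 107 CPM in WT and at 17.4 and 14.0 CPM in IL6KO, and both were called lower. The 8 markers of alveolar type 2 cells summed to 3546 and 2489 CPM against 1267 and 1245 CPM, with 5 called lower, and 4 of 10 T cell markers were called lower. Apart from the dendritic cell marker Xcr1, no marker of these lists was at 0 in every isolate. The part of these cells in the class I and class II differences was not tested.

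With 2 libraries per genotype the number of calls depended on single libraries. It was 5 without WT library 1, 4 without WT library 2 and 14 without IL6KO library 2. RT1-CE1, RT1-CE10, RT1-A1 and RT1-CE7 were called whichever library was left out. Without WT library 1 RT1-CE5, RT1-DMa, RT1-DMb and RT1-Db2 were not called, and without WT library 2 RT1-A2 was lost as well (adjusted p = 0.0571 by edgeR).

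In whole lung of day 7, RT1-A1, RT1-A2 and RT1-M2 fell in IL6KO and RT1-CE1, RT1-CE10 and RT1-DOa rose. These are 6 of 33 members called by edgeR, 3 in each direction, against 2.09% of all genes tested (0.933% higher and 1.16% lower). The median over the members was 0.04, over class I genes 0.18 and over class II genes -0.10, against 0.00 over all genes. Libraries of the genotypes did not overlap for 8 members, against 18.8% of all genes.

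RT1-A1 was at 118, 136 and 130 CPM in WT lung and at 92.5, 72.2 and 83.0 CPM in IL6KO lung (-0.63, SE 0.10, adjusted p = 0.0181 by edgeR). RT1-A2 was at 289, 317 and 328 CPM against 238, 194 and 204 CPM (-0.55, SE 0.09, adjusted p = 0.0205). For both classical genes every WT library was above every IL6KO library. RT1-CE1 was at 86.6, 99.3 and 89.7 CPM against 126, 116 and 147 CPM (0.50, adjusted p = 0.0408). RT1-CE10 was at 47.9, 48.4 and 53.4 CPM against 79.2, 63.7 and 71.8 CPM (0.52, adjusted p = 0.0272). Both rose with no overlap between the genotypes, by much less than in the CD4 isolates. RT1-CE7 was at 70.7, 73.2 and 75.7 CPM against 99.3, 80.3 and 93.7 CPM, without overlap, and was not called (0.32, adjusted p = 0.12), while RT1-CE4, RT1-CE5 and RT1-S3 overlapped. B2m was at 2006, 2133 and 1981 CPM in WT and at 2657, 2102 and 2117 CPM in IL6KO and was not called.

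RT1-M2, a gene of the nonclassical M region, had 15, 51 and 34 counts in WT lung and 3, 1 and 5 counts in IL6KO lung. It fell by 3.38 (SE 0.49, adjusted p = 0.0126 by edgeR), and its levels were low throughout. RT1-DOa, the alpha chain of the DM inhibitor, was at 4.51, 4.67 and 5.75 CPM in WT and at 7.75, 9.86 and 8.59 CPM in IL6KO (0.81, SE 0.15, adjusted p = 0.034). Its partner RT1-DOb was at 8.02, 10.8 and 11.7 CPM against 9.63, 10.2 and 8.75 CPM, and the genotypes overlapped. RT1-Ba, RT1-Bb, RT1-Da, RT1-Db1, RT1-DMa, RT1-DMb, Cd74 and Ciita overlapped between the genotypes as well and were not called. Cd74, for example, was at 1294, 1465 and 1813 CPM in WT and at 1490, 1468 and 1499 CPM in IL6KO.

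None of 28 other antigen processing genes was called in day 7 lung. The summed level of 10 natural killer cell markers was 46.5, 65.2 and 65.8 CPM in WT and 153, 144 and 122 CPM in IL6KO, with 7 of 10 called higher, and the 10 B cell markers summed to 49.4 to 54.1 CPM against 57.1 to 83.6 CPM with none called. No macrophage, dendritic cell or T cell marker was called, and the part of these cells in the member changes was not tested. The number of members called was 3 without WT library 1, 1 without WT library 2, 4 without WT library 3, 2 without IL6KO library 1 and 2 without IL6KO library 2. RT1-M2 kept its call in each of these fits except that without IL6KO library 1 (adjusted p = 0.0514 by edgeR).

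The genotype effect in the CD4 isolates was set against that in day 7 lung by an interaction over the 10 libraries, a test added after the data were seen. It called 5 of 33 members, against 6.42% of all genes (1.88% higher and 4.55% lower). They were RT1-CE1, RT1-CE10, RT1-A2, RT1-Db2 and RT1-CE7, all with a higher effect in the isolates. RT1-A2 had opposite signs, at -0.55 in lung and 0.78 in the isolates, a difference of 1.25 (SE 0.15, adjusted p = 0.000925 by edgeR). RT1-A1 was lower in IL6KO in both, and its difference was not called (-0.45, adjusted p = 0.106). Tissue and count table coincide here, so table-wide differences cannot be told apart from tissue, although the genotype effect is taken within each table. Nor can tissue be told apart from a difference in RT1 alleles between the animals of the isolates and those of the lungs.

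In day 56 lung no member was called by edgeR, against 0.0138% of all genes. At an unadjusted p under 0.05 there were 8 of 39 members, against 11.4% of all genes, and DESeq2 called 2, RT1-M2 and Cd74. Class II genes had a median of -0.24, with 9 of 11 below 0, and Cd74 and Ciita were below 0 too. Over class I genes the median was 0.04 and over all genes it was -0.01. Libraries of the genotypes did not overlap for 2 members that were higher and 7 that were lower in IL6KO, against 16.8% of all genes.

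Cd74 was at 1999, 1915 and 1728 CPM in WT and at 1417, 1530 and 1385 CPM in IL6KO (-0.38, SE 0.10, adjusted p = 0.401 by edgeR). RT1-Ba was at 509, 480 and 472 CPM against 380, 466 and 352 CPM (-0.29, adjusted p = 0.438), and RT1-Db1 at 299, 291 and 408 CPM against 214, 257 and 196 CPM (-0.58, adjusted p = 0.401). For these genes every WT library was above every IL6KO library. RT1-Bb was at 238, 246 and 400 CPM against 203, 230 and 173 CPM (-0.55), and RT1-Da at 525, 501 and 571 CPM against 414, 508 and 401 CPM (-0.27). In both RT1-Bb and RT1-Db1 the highest value came from WT library 3. Without it the differences were -0.26 for RT1-Bb (adjusted p = 0.218 by edgeR) and -0.40 for RT1-Db1 (adjusted p = 0.0901).

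The DM genes RT1-DMb_1 and RT1-DMb_2 overlapped between the genotypes, at 45.4, 46.5 and 59.3 CPM against 41.2, 53.8 and 38.2 CPM for RT1-DMb_1. Among class I genes RT1-CE7 was at 125, 112 and 102 CPM against 133, 134 and 152 CPM (0.31, adjusted p = 0.414), every IL6KO library above every WT library, and RT1-A2 lay between 256 and 299 CPM in all 6 libraries. RT1-CE16_1 went the other way without overlap (-0.37, adjusted p = 0.413 by edgeR). Without WT library 3 its difference was -0.42 (adjusted p = 0.0671). Tap2 was without overlap too, with WT above IL6KO (-0.21, adjusted p = 0.44 by edgeR).

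WT library 3 also had the lowest RT1-CE1, at 65.5 CPM against 179 and 156 CPM in the other WT libraries and 132, 137 and 142 CPM in IL6KO. RT1-CE10 was at 49.3 CPM in it, against 118 and 106 CPM in WT and 94.0, 98.9 and 96.8 CPM in IL6KO. RT1-A1 was at 172 CPM in it, against 129 and 105 CPM in WT and 101, 109 and 105 CPM in IL6KO. Without WT library 3 edgeR called 2 members, RT1-M2 (-2.47, adjusted p = 0.0139) and Cd74 (-0.43, adjusted p = 0.0394). The counts of RT1-M2 were 45, 70 and 15 in WT lung and 8, 9 and 9 in IL6KO lung. T cell markers summed to 111, 84.4 and 87.4 CPM in WT and to 44.5, 76.3 and 67.4 CPM in IL6KO, with none of 8 called, while macrophage markers overlapped between the genotypes. The B cell markers summed to 156, 113 and 109 CPM in WT and to 92.5, 124 and 105 CPM in IL6KO (median -0.39, none of 10 called). The dendritic cell markers summed to 173, 154 and 187 CPM against 148, 151 and 185 CPM (median -0.24, none of 9 called). The part of these cells in the class II values was not tested.

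The difference between the genotype effects of day 56 and day 7 was tested over the 12 lung libraries. No member and no gene was called by edgeR (0% of all genes), 4 of 33 members had an unadjusted p under 0.05 against 7.52% of all genes, and DESeq2 called 1, RT1-DOa. RT1-DOa had the smallest p (difference -1.18, adjusted p = 0.42 by edgeR), at 15.8, 13.9 and 11.0 CPM in day 56 WT lung and 9.31, 13.5 and 8.82 CPM in day 56 IL6KO lung. Without day 56 WT library 3, edgeR called 3 members, among them RT1-DOa (-1.31, adjusted p = 0.0183).

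Day 56 was also set against day 7 within each genotype, with the limit that the days stand in separate count tables with partly different gene symbols, so day and table cannot be told apart. In WT lung 9 of 33 members were called, 8 higher and 1 lower at day 56, against 14.8% of all genes (6.72% higher and 8.05% lower). RT1-DOa rose by 1.41 (SE 0.20, adjusted p = 0.000389 by edgeR), RT1-CE7 by 0.59 (adjusted p = 0.00241), RT1-S3 by 0.62 (adjusted p = 0.00833) and RT1-Ba by 0.43 (adjusted p = 0.0305). RT1-CE5 (0.49, adjusted p = 0.0112 by edgeR) and RT1-T24-3 (0.68, adjusted p = 0.0273) rose too, without overlap between the days. RT1-CE10 (0.84, adjusted p = 0.0384 by edgeR) and RT1-M6-2 (2.08, adjusted p = 0.0459) were called as well, but their days overlapped. Both lost the call with no filter (adjusted p = 0.0527 and 0.0511 by edgeR) and with the replicate block (0.0668 and 0.0672). RT1-Ba lost its call with the block too (adjusted p = 0.0579 by edgeR). Some fits with a library left out also lost RT1-Ba and RT1-T24-3, for example without day 7 WT library 2 (adjusted p = 0.101 and 0.0929 by edgeR). RT1-DMa had 568 to 1223 counts in the WT libraries of day 7 and 139 to 309 in those of day 56 (-2.19, adjusted p = 0.0222), while its partner RT1-DMb is listed as a single gene in the day 7 table and as RT1-DMb_1 and RT1-DMb_2 in the day 56 table. The call of RT1-DMa was lost in some fits with a library left out, for example without day 7 WT library 2 (adjusted p = 0.0571 by edgeR).

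In IL6KO lung 2 of 33 members were higher at day 56, RT1-CE7 (0.59, adjusted p = 0.00338 by edgeR) and RT1-CE3 (0.77, adjusted p = 0.0326), against 8.32% of all genes (3.4% higher and 4.92% lower). RT1-S3 (0.45, adjusted p = 0.0565 by edgeR) and RT1-DMa (-1.84, adjusted p = 0.0621) were not called. Their libraries of the days did not overlap, and both had the same direction as in WT lung. Among cell type markers, 8 of 10 B cell and 10 of 10 natural killer cell markers were called higher at day 56 in WT lung, and 1 of 10 of each in IL6KO lung. Their part in the member changes was not tested. The WT count was 4 without day 7 WT library 2 and 11 without day 56 WT library 3, and the IL6KO count was 5 without day 56 WT library 3 and 1 without day 7 WT library 3 or any of IL6KO libraries 1 and 2 of either day. RT1-CE3 was not called by DESeq2 (adjusted p = 0.0708), nor without day 56 IL6KO library 3 (adjusted p = 0.103 by edgeR).

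Set against whole lung of day 7, the CD4 isolates held more of most members. The median was 1.43 on the log2 scale over the members and -0.12 over all genes. With both genotypes averaged, 30 of 33 members were called, 26 higher and 4 lower, against 86.1% of all genes (39.9% higher and 46.2% lower). All 4 of B2m, Tap1, Tap2 and Tapbp were higher, and so were 12 of 17 class I and 9 of 10 class II genes. RT1-CE7 (2.55, adjusted p = 3.41e-12 by edgeR), RT1-Bb (2.36, adjusted p = 3.3e-08) and RT1-DMa (2.31, adjusted p = 8.23e-08) had the largest changes. RT1-CE1 (-1.53), RT1-T24-1, RT1-T24-3 and RT1-T24-4 were lower in the isolates. Cd74 was higher by 1.69, but Ciita was not called (-0.01, adjusted p = 0.944). That average hides opposite directions, as Ciita means were 22.3 CPM in WT and 51.6 CPM in IL6KO isolates, against 41.4 and 40.3 CPM in lung. RT1-CE1 means were 12.5 CPM in WT and 80.7 CPM in IL6KO isolates, against 91.9 and 130 CPM in lung.

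Markers of several cell types also differed between the isolates and lung. The median of the T cell markers was 6.02 on the log2 scale over lung, with 10 of 10 higher, that of the macrophage markers 2.09, with 6 of 9 higher and 1 lower, and that of the dendritic cell markers 1.14, with 6 of 10 higher and 4 lower. The B cell markers had a median of -1.03, with 3 higher and 7 lower. Endothelial markers were at -6.07 and alveolar type 2 markers at -3.96. The share of the class II counts that came from each cell type was not tested.

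In mouse splenic CD4 cells, H2-Ab1, H2-Aa, H2-Eb1, H2-DMb2, H2-DMa, Cd74 and Ciita were higher in the tdTomato-positive than in the tdTomato-negative fraction of all 3 mice. The share of all genes that were higher in all 3 mice is not given here, so this is a description only. For H2-DMa the fractions overlapped between mice. No member passed edgeR's test without regard to the mouse, against 0.00902% of all genes, and DESeq2 also called 0. At an unadjusted p under 0.05 there were 7 of 31 members, against 3.56% of all genes. The fractions of a mouse share an animal, and with the mouse as a block 2 members were called, against 0.0271% of all genes. These were H2-Ab1 (0.99, adjusted p = 0.022 by edgeR) and Cd74 (0.82, adjusted p = 0.0216). The unadjusted count above and all spleen folds, medians and adjusted p-values below are from the fit without the block, which does not use the pairing.

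H2-Ab1, the beta chain of the H2-A pair on chromosome 17 (34257689 to 34269419 of GRCm38), was at 554, 250 and 221 CPM in the positive fractions of mice 1, 2 and 3 and at 200, 116 and 166 CPM in their negative fractions. Cd74 was at 968, 509 and 489 CPM against 445, 280 and 350 CPM. Positive and negative fractions did not overlap in either gene, and mouse 1 had the highest positive value. H2-Aa, the alpha chain, was at 235, 131 and 138 CPM against 103, 63.9 and 107 CPM (0.87, adjusted p = 0.998 without the block). H2-Eb1 was at 149, 81.0 and 93.6 CPM against 67.8, 46.9 and 63.1 CPM (0.86, adjusted p = 0.998), and Ciita at 23.6, 24.1 and 13.4 CPM against 12.9, 11.7 and 9.77 CPM (0.82, adjusted p = 0.998). These fractions did not overlap either.

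All 9 class II genes tested were above 0, with a median of 0.47 on the log2 scale, against -0.05 over class I genes and -0.01 over all genes. The summed class II level was 1212, 668 and 676 CPM in the positive and 556, 427 and 541 CPM in the negative fractions, a ratio of 1.68. H2-DMb2, a DM beta chain, was at 46.5, 28.6 and 20.8 CPM against 18.8, 15.3 and 16.8 CPM (0.90). The DO genes H2-Oa and H2-Ob overlapped between the fractions, with H2-Ob at 119, 87.5 and 118 CPM against 82.0, 106 and 110 CPM.

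**Figure D4:**
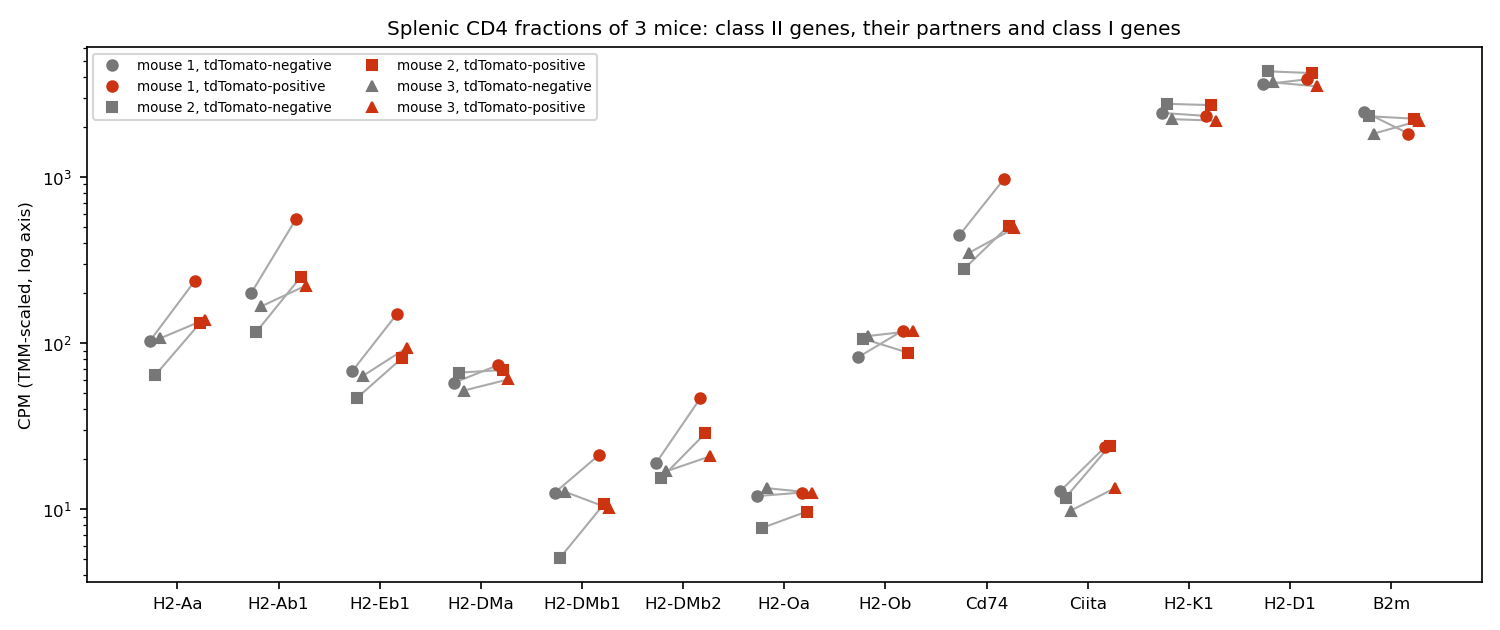
CPM on a log axis of class II genes, Cd74, Ciita, H2-K1, H2-D1 and B2m in the splenic CD4 fractions of 3 mice (marker shapes), with a line joining the tdTomato-negative (grey) and tdTomato-positive (red) fraction of a mouse. The lines rise in all 3 mice for H2-Ab1 (200, 116 and 166 to 554, 250 and 221 CPM) and for Cd74, and run nearly flat for H2-K1 and H2-D1.

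The classical class I genes lay at like levels in both fractions. H2-K1 was at 2327, 2703 and 2177 CPM in the positive and 2427, 2752 and 2226 CPM in the negative fractions, H2-D1 at 3867, 4215 and 3506 CPM against 3600, 4317 and 3704 CPM, and B2m at 1821, 2240 and 2170 CPM against 2467, 2316 and 1823 CPM. The nonclassical genes overlapped as well, with H2-Q7 at 323 to 519 CPM against 333 to 577 CPM, H2-T23 at 311 to 425 CPM against 317 to 438 CPM, H2-T22 at 248 to 278 CPM against 226 to 286 CPM and H2-Q6 at 131 to 246 CPM against 119 to 252 CPM. Tap1, Tap2 and Tapbp overlapped too. The ratio of the class I sums was 0.98. H2-M2, with 36, 10 and 29 counts in the positive and 6, 1 and 6 in the negative fractions, was the only class I gene whose fractions did not overlap (2.43, adjusted p = 0.998 by edgeR). In all, 7 of 31 members were without overlap and all 7 were higher, against 8.6% of all genes. Of 28 other antigen processing genes none was called and the median was 0.01.

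Summed markers of B cells and of macrophages were also above the negative fractions in the positive ones. The 9 B cell markers summed to 94.5, 95.5 and 110 CPM in the positive and 41.1, 52.2 and 84.2 CPM in the negative fractions, and the 10 macrophage markers to 82.7, 65.7 and 64.2 CPM against 46.9, 29.5 and 49.4 CPM. None of these markers was called, none of the B cell markers was at 0 in every library, and T cell markers were at 6275 to 6634 CPM and 6503 to 6776 CPM. Other lists leaned the same way, with medians of 0.58 over 10 dendritic cell, 0.47 over 2 CD8 T cell and 0.25 over 9 natural killer cell markers. The median over 10 T cell markers was -0.01, and none of these lists had a call. The part of any of these cells in the class II values was not tested. H2-T22 and H2-T10 were 96.5% identical over their coding sequence in GENCODE, H2-Q5 and H2-Q7 96.1%, H2-DMb1 and H2-DMb2 95.9%, and H2-K1 and H2-D1 88.4%, so values of a single gene among the closest pairs are uncertain.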

How the data were processed

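The authors deposited raw counts per gene in 4 tables, per the file headers (day 7 lung, day 56 lung, day 7 lung CD4 cells and mouse splenic CD4 cells). The submitters' processing notes name the build GRCm38 for all samples, rat included. The aligner and the counter were not given in the sources used here. All 22 sample columns were matched to labels by name.

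Counts were tested per comparison with edgeR 4.0.16 in R 4.3.3 (filterByExpr, TMM, robust quasi-likelihood test). P-values were adjusted by Benjamini-Hochberg across every gene of the fit, with a call at an adjusted p under 0.05. Comparisons across tables used shared symbols. The fits were tested on simulated counts: of 100 genes given a log2 change of 1, 94% were recovered for day 7 lung, 71% for day 56 lung, 76% for CD4 isolates and 72% for spleen. Recovery was 61% for genotype by day and 63% for genotype by tissue, and 3.52% to 8.5% of calls per comparison were false. The simulated spread followed the average trend at each level and had no outlying library, so recovery in these data may be lower. Alternatives were DESeq2 1.42.0, RLE factors, no filter, a mean of at least 5 CPM, the replicate number as a block, and each library left out. The members, gene lists and markers were chosen with earlier results of these data known. The members to name were the main class II chains, DM and DO genes, H2-K1, H2-D1, B2m, Tap1, Tap2, Tapbp, Cd74 and Ciita, the 6 most abundant class I genes per species, and members called in a comparison (above 15 calls, the 10 with the largest changes without overlap; under 4 calls, the 4 of smallest p). Other processing genes were named where called, at most 4 per comparison. RT1-T24-1, H2-M2, Psmb9 and the lung values of uncalled members outside the rule were chosen after their values were seen.

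Same-numbered splenic fractions come from the same mouse per the labels, and their deviations from group means correlated at 0.0302, 0.122 and 0.116.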

Additional observations from a re-analysis of the deposited data

Results flagged for a closer look

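The fold between genotypes differed between day 7 lung CD4 isolates and day 7 whole lung for 5 members. This is by an interaction over 10 libraries that was added after the data were seen. A genotype effect that depends on tissue and a difference in RT1 alleles between the animals cannot be told apart here. The difference in log2 fold change, isolates minus lung, was 2.08 for RT1-CE1 (SE 0.17, adjusted p = 8.94e-05 by edgeR) and 1.40 for RT1-CE10 (SE 0.14, adjusted p = 0.000392). For RT1-A2, which fell in lung and rose in the isolates, it was 1.25 (SE 0.15, adjusted p = 0.000925). For RT1-Db2, with 13 counts in all in the WT isolates, it was 4.63 (SE 0.64, adjusted p = 0.0023). For RT1-CE7 it was 0.56 (SE 0.14, adjusted p = 0.0358), and that call was lost without lung WT library 3 or without any one of the 4 isolates, with adjusted p from 0.0711 to 0.116. The other 4 were called whichever library was left out.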

How the results depend on the processing

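Over 97 results for single members and 1278 alternatives, 1167 kept direction and side of the threshold, 82 lost the call, 29 gained it and 0 reversed. Leaving out single libraries gave 1 to 6 calls in day 7 lung, 0 to 2 in day 56 lung, 4 to 14 in the CD4 isolates, 0 to 3 for the difference between days, 4 to 11 for WT day 56 against day 7, 1 to 5 for IL6KO day 56 against day 7 and 4 to 7 for genotype by tissue. DESeq2 called 2 members in day 56 lung, 1 for the difference between days, 4 for IL6KO day 56 against day 7 (1 of the 2 kept) and 8 for genotype by tissue. With no filter, or with a mean of at least 5 CPM, IL6KO day 56 against day 7 gave 1. Fits with 1 library left in a group assume that it varies like the others; the causes of these shifts were not tested.

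Rat libraries share replicate numbers but nothing in the labels pairs them, and same-number correlations were 0.056, 0.0780 and 0.256 in day 7 lung, -0.161, -0.0749 and -0.0275 in day 56 lung and -0.000359 in the isolates. With the replicate block the calls were 6 in day 7 lung, 0 in day 56 lung, 18 in the CD4 isolates (8 of the 9 kept), 7 for WT (6 of 9 kept) and 4 for IL6KO day 56 against day 7 (1 of 2 kept), 0 for the difference between days, 30 for isolates against lung and 9 for genotype by tissue. In the isolates the block added RT1-Ba, RT1-Bb, RT1-Da, RT1-Db1, Ciita and Cd74 (0.52, adjusted p = 0.00813 by edgeR) to the calls. With the mouse as the block the spleen gave 2. The lowest counts, such as those of RT1-M2 and RT1-Db2, limit the precision of their fold changes.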
